A study of Mus musculus with 12 samples.

Results

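The comparison described here was fatostatin added to EpA against EpA alone, in Th9 cells. It drew on 6 of the 12 RNA-seq libraries of the series, 3 labelled EpA and 3 labelled EpA+fato, and on the 13733 genes, of 32051 listed, whose mean over the 12 libraries was at least 0.1 FPKM (fragments per kilobase of gene, scaled to library size). All groups were naive CD4+ T cells from splenocytes of C57BL/6J mice, activated through CD3 and CD28 by antibodies and polarized with IL-4 (10 ng/mL), TGF-β (1 ng/mL), and antibodies that blocked IL-12 and IFN-γ for 3 days and with the 2 cytokines alone until RNA was taken on day 4. The EpA group received 10 μM EpA (endomelipeptide A, a cyclic peptide of fungal origin) and the other group 10 μM EpA with 5 μM fatostatin. The other 6 libraries, 3 with DMSO (the vehicle) and 3 with fatostatin alone, shared the fit and gave the effect of fatostatin without EpA. Per the methods of the study, its mice were 6 to 8 weeks of age. Whether the 3 replicates of a group came from separate mice or cultures is not stated, so p-values measure only the spread between these libraries.

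Sterol regulatory element-binding proteins (SREBPs) are transcription factors that turn on the genes of cholesterol and fatty acid synthesis. They are made as inactive precursors in the endoplasmic reticulum, where the sterol sensor SCAP holds them, and when sterols are low SCAP escorts them to the Golgi, where proteases release the active part. Fatostatin binds SCAP and blocks this step, and it is also known to disturb microtubules and mitosis in dividing cells independently of SCAP. Th9 cells are CD4+ helper cells that secrete IL-9 and depend on signals from IL-4 through STAT6 and from TGF-β through SMAD3. Messenger RNA was measured in bulk, so fewer cells of a type and less RNA per cell cannot be told apart.

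Adding fatostatin to EpA lowered target genes of the aryl hydrocarbon receptor, a ligand-activated transcription factor that senses dietary and xenobiotic aromatic compounds, with *Cyp1a1* 103-fold lower. It raised target genes of p53, the transcription factor of the DNA damage and stress response, with *Cdkn1a* 1.67-fold, *Mdm2* 1.6-fold, and *Trp53inp1* 2.15-fold higher. *Il9* rose 1.28-fold and *Il10* fell to 0.522 of its level with EpA. By small amounts, 25 of 37 genes of mitosis, 20 of 34 of DNA replication, and 10 of 19 of the tubulin list fell, where 6.79% of all tested genes did. Of the 57 SREBP pathway genes tested, 15 (26.3%) fell, against 6.79% of all genes, and 5 (8.77%) rose, close to the 9.22% of all genes. With a threshold of 1.5-fold 0 were called, near the 1.51% of all genes called higher and 0.481% called lower.

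The libraries were close in depth and in profile. Reads on genes came to between 36019740 and 43656682 per library over the series. Pearson's r of log2 values across genes was 0.986 to 0.987 for the 6 pairs of libraries within a group and 0.983 to 0.985 for the 9 pairs between the groups. The first principal component of the 6 libraries (28.2% of the variance) placed the 3 libraries with both compounds at 13.8 to 23.2 and the 3 with EpA at -21.3 to -14.3. T cell markers summed to 891 to 900 FPKM with EpA and 875 to 901 FPKM with both compounds. Of these 8 markers, *Cd4* rose from 86.8 ± 0.533 to 90.5 ± 1.44 FPKM (SD, n = 3 each; adjusted p = 0.0357, lost under 11 of 22 alternative settings), *Lck*, the kinase of the receptor complex, fell from 134 ± 2.87 to 119 ± 0.948 FPKM (adjusted p = 0.000322), and *Cd28* fell from 25.7 to 20.01 FPKM, while the other 5, among them *Cd3e* at 42.3 ± 1.17 and 40.8 ± 0.748 FPKM, did not pass. Markers of other cells summed to at most 0.315 FPKM for NK cells, 0.721 FPKM for erythroid cells, 1.85 FPKM for mast cells and basophils, and 1.404 FPKM for myeloid cells, and *Ly6g*, *Clec9a*, and *Siglech* were listed at 0 in all 6 libraries. Dendritic cell markers, mostly *H2-Ab1*, summed to 8.97 to 9.91 FPKM with EpA and 9.06 to 10.2 FPKM with both compounds. B cell markers, mostly *Ighm*, summed to 28.6 to 29.6 FPKM and 26.9 to 27.5 FPKM, with *Ighm* lower (-0.17, adjusted p = 0.000379) and *Cd79a*, at 0.489 and 0.869 FPKM, higher (adjusted p = 0.00828). CD8 T cell markers summed to 7.85 to 8.57 FPKM and 6.98 to 8.604 FPKM, where *Cd8a* fell from 0.802 to 0.491 FPKM (adjusted p = 0.00281) and the more abundant *Cd8b1* stood at 7.47 ± 0.404 and 7.25 ± 0.889 FPKM (adjusted p = 0.793). The part of such cells in the results was not tested.

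With limma on log2(FPKM + 0.1), 207 genes (1.51% of those tested) were called higher and 66 (0.481%) lower with both compounds than with EpA, where a call required both a limma p, adjusted, below 0.05 and a change of 1.5-fold or more. Without the fold threshold, 1266 genes (9.22%) passed as higher and 933 (6.79%) as lower, and the median difference of all tested genes was 0.01 on the log2 scale. Of these genes without the fold threshold, 57.6% were higher, against 46.5% when libraries were scaled by the median ratio, which moved the median of all genes to -0.00235. The 3 values of one group lay wholly outside the 3 of the other for 4572 genes (33.3%), including 270 of the 273 called. Changes were mostly small, with 46 genes called at least 2-fold higher and 24 at least 2-fold lower. Genes with a mean below 1 FPKM made up 48.0% of the calls, so the genes named below have a mean of at least 1 FPKM unless stated. An exact permutation test of 3 against 3 libraries cannot give a p below 0.1, and adjusted p-values below are therefore those of limma over all 13733 genes.

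**Figure D1:**
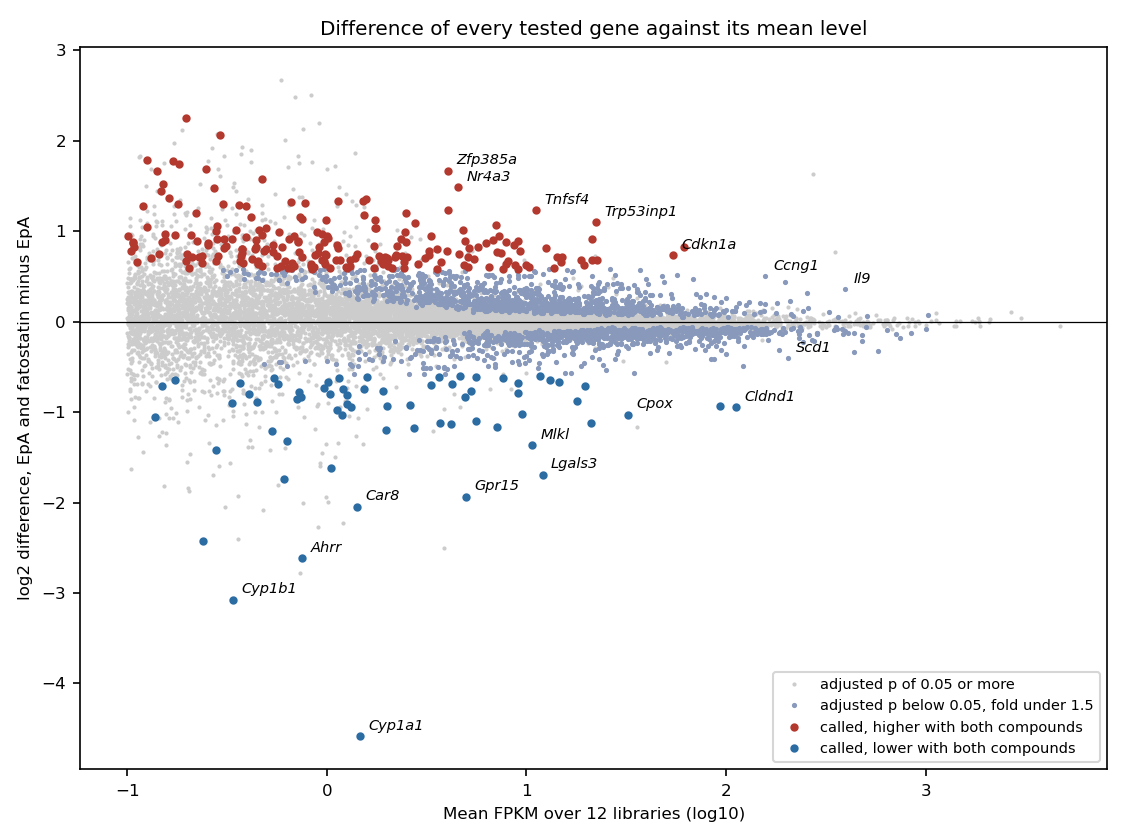
Each point is a tested gene, with its mean FPKM over the 12 libraries (log10 axis) against the log2 difference between EpA and fatostatin and EpA alone, colored by whether it passed the adjusted p and the fold threshold. The 207 red points above 0 and the 66 blue points below 0 are the called genes, and *Cyp1a1* lies lowest at -4.58.

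Target genes of the aryl hydrocarbon receptor (AhR) fell as a group. AhR waits in the cytosol, and once it binds a ligand it enters the nucleus, pairs with ARNT, and binds a short DNA core, GCGTG, near genes that clear or sense the ligand. Of 10 tested members among the 15 listed, 7 fell at an adjusted p below 0.05, 6 of them by 1.5-fold or more, 0 rose, and 8 did not overlap between the groups, against 6.79%, 0.481%, 9.22%, and 33.3% of all tested genes for these 4 counts in turn. The median difference of the list was -1.10, against 0.01 for all genes. The promoters of the 4 called AhR targets with this core upstream of the start are shown, since they let a reader see where it lies. Each sequence is the 250 bases before the RefSeq start of transcription (GRCm38.p6), read 5′ to 3′ on the strand of the gene, with GCGTG or its complement CACGC in capitals.
Cyp1a1: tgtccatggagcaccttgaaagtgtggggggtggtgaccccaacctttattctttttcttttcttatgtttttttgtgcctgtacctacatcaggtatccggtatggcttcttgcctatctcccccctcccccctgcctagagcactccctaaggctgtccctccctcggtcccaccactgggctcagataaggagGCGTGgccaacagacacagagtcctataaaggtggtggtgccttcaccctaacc
Cyp1b1: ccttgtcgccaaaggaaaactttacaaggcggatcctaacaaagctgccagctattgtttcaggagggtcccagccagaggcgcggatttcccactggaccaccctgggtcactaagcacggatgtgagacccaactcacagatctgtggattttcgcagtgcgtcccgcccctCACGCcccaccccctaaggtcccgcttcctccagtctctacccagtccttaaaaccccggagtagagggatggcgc
Ahrr: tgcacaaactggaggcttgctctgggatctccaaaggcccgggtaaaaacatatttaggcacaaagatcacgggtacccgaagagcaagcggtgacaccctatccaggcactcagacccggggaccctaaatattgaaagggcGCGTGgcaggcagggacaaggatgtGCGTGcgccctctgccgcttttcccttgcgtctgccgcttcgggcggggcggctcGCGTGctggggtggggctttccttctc
Tiparp: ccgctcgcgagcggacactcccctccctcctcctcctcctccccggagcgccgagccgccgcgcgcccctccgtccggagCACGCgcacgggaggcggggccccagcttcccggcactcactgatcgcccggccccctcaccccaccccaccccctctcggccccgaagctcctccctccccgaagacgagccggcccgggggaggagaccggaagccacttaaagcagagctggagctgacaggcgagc
These windows lie at chr9:57697363-57697612 (plus strand), chr17:79715062-79715311 (minus strand), chr13:74292332-74292581 (minus strand), and chr3:65528197-65528446 (plus strand). The core began 54 bases before the start in *Cyp1a1*, 76 in *Cyp1b1*, and 170 in *Tiparp*, and *Ahrr* held 3 copies, 107, 82, and 27 bases before the start. Searched on both strands over 300 bases, GCGTG was present in 57.1% of 14 windows of the list, in 50% of the windows of all tested genes, in 51.7% of those of the genes called lower, and in 32.4% of all 32851 windows, so a match of this short core was common and is a description only.

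*Cyp1a1* encodes a cytochrome P450 that oxidizes AhR ligands and is the classic readout of the receptor. It lies at chr9:57687928-57703824 (GRCm38). Its level was 2.81, 2.84, and 3.18 FPKM in the 3 EpA libraries and 0.0507, 0, and 0.035 FPKM in the 3 libraries with both compounds. The groups lay far apart, with the gene listed at 0 in 1 library with both compounds. The recovered reads came to 1002 over the EpA libraries and 10 over those with both compounds, and the ratio of means was 103 with an exact interval of 43.7 to 318 for counting error, taking the 2 mates of a fragment as 1. The log2 difference was -4.58 (SE 0.165, adjusted p = 1.59e-08), a figure that depends on the pseudocount.

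*Cyp1b1*, a related cytochrome P450, behaved similarly at a lower level. It measured 1.04, 1.03, and 1.02 FPKM with EpA and 0.0363, 0.0247, and 0.0418 FPKM with both compounds, which rested on 733 and 25 reads. The ratio was 30.05 (interval 17.7 to 61.1, counting error only) and the log2 difference -3.07 (adjusted p = 2.82e-07). *Ahrr*, the repressor that AhR induces to shut itself off, fell from 1.42, 1.5, and 1.5 FPKM to 0.172, 0.143, and 0.158 FPKM, with no value of one group near those of the other (-2.61, adjusted p = 8.42e-08). Both genes have a mean below 1 FPKM over the 12 libraries.

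*Tiparp*, which encodes a mono-ADP-ribosyltransferase of the same feedback loop, fell by close to the same factor in each library. Its values were 13.5, 13.4, and 14 FPKM with EpA and 6.28, 6.82, and 7.005 FPKM with both compounds (log2 difference -1.02, adjusted p = 3.28e-08). *Nqo1*, a quinone reductase that both AhR and NRF2 induce, fell from 3.98 ± 0.19 to 1.72 ± 0.216 FPKM (adjusted p = 4.03e-05). *Lpxn*, an adaptor of the paxillin family, fell by less (-0.21, adjusted p = 0.000137). The receptor itself and its partner did not pass the test. *Ahr* stood at 15.4 ± 0.155 and 15.9 ± 0.342 FPKM (adjusted p = 0.233) and *Arnt* at 11.7 ± 0.224 and 11.6 ± 0.353 FPKM (adjusted p = 0.858).

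A run of 3 neighboring genes on chromosome 16 fell together. *Gpr15*, a chemoattractant receptor that guides T cells to the colon and is an AhR target, measured 9.45, 9.48, and 10.2 FPKM with EpA and 3.3, 2.31, and 1.95 FPKM with both compounds (log2 difference -1.93, adjusted p = 4.52e-06). *Cpox*, which encodes the mitochondrial coproporphyrinogen oxidase of heme synthesis, measured 46.6, 47.5, and 47 FPKM and 22.8, 23.2, and 23.1 FPKM (-1.03, adjusted p = 1.33e-09). *Cldnd1*, which encodes a membrane protein with a claudin domain, measured 159, 153, and 158 FPKM and 82.3, 82.8, and 79.3 FPKM (-0.94, adjusted p = 1.33e-09). In each of them every library with both compounds lay below every EpA library, and *Cpox* and *Cldnd1* came to close to the same fraction, 0.49 and 0.52. *Cpox* (chr16:58670292-58717636, plus strand) and *Gpr15* (chr16:58717433-58719070, minus strand) overlap by 204 bases at their ends, and since strand is not stated for the counting, reads there cannot be assigned to one or the other. *Cldnd1* (chr16:58727910-58734251, plus strand) starts 10.3 kb after the end of *Cpox*. Within 200 kb of *Cpox*, 5 of 14 genes were tested and these 3 were the ones called, whereas *St3gal6* and *Or5k1*, both low, did not pass (-0.59, adjusted p = 0.126, and 0.11, adjusted p = 0.835). Of the other heme and iron genes, *Steap3*, an iron reductase, rose (0.48), and 17 of the 22 tested in all did not pass.

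**Figure D2:**
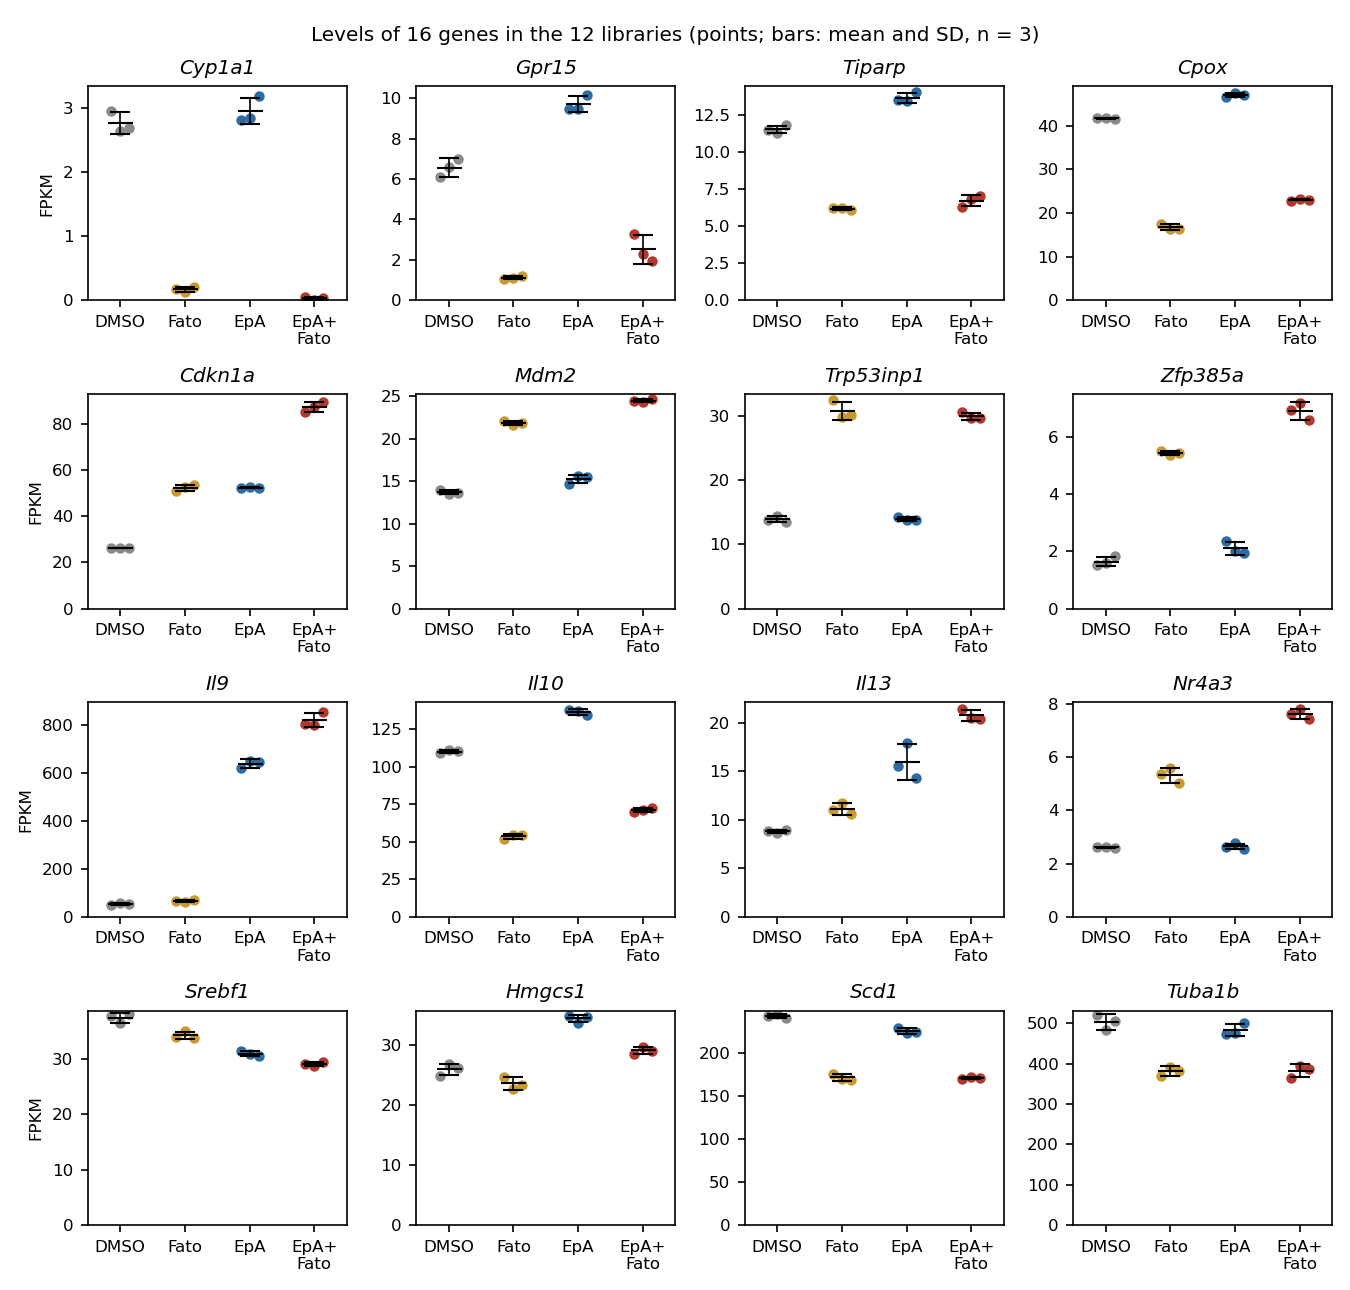
FPKM (linear axis from 0) of 16 genes in the DMSO, fatostatin, EpA, and EpA and fatostatin libraries, with a point per library and the mean and SD (n = 3) as bars. *Cyp1a1*, *Gpr15*, *Tiparp*, and *Cpox* were lower in both groups that held fatostatin than in their partners without it, and *Cdkn1a*, *Mdm2*, *Trp53inp1*, and *Zfp385a* were higher in both.

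Other genes with the largest falls covered several functions. *Car8*, a catalytically inactive relative of the carbonic anhydrases, fell from 2.8 ± 0.128 to 0.609 ± 0.116 FPKM (SD, n = 3; -2.04). *Lgals3*, which encodes the galactose-binding lectin galectin-3, measured 13.2, 13.1, and 13.9 FPKM with EpA and 4.05, 4.74, and 3.51 FPKM with both compounds (adjusted p = 1.84e-07). *Mlkl*, the pore-forming effector of necroptosis, measured 16.4, 15.8, and 16.9 FPKM and 6.57, 6.05, and 6.29 FPKM (-1.36, adjusted p = 7.25e-09), and its spread was so small that it was among the most significant falls. *Ifitm1*, an interferon-induced antiviral membrane protein, fell from 1.73 to 0.498 FPKM. *Asb2*, a substrate adaptor of a ubiquitin ligase, fell from 3.68 to 1.55 FPKM, and *Neurl3*, a ubiquitin ligase, from 29.7 to 13.6 FPKM. The receptors *Gpr55*, which responds to lysophosphatidylinositol, and *Cd200r1*, the inhibitory receptor for CD200, fell by 1.13 and 1.12 on the log2 scale, and *Rasgrp4*, an activator of Ras, by 1.17. These 9 genes were named as the largest falls among called genes without overlap, so the call and the lack of overlap follow from that choice. Their adjusted p was at most 0.000341.

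Target genes of p53 rose together. When DNA damage or other stress stabilizes p53, it turns on genes that halt the cell cycle, repair DNA, limit growth signaling, or start apoptosis, along with *Mdm2*, its own inhibitor. All 24 listed members were tested. At an adjusted p below 0.05, 19 rose, 14 of them by 1.5-fold or more, 1 fell, and 4 did not pass, and 20 did not overlap between the groups. Of all tested genes 9.22% rose, 1.51% rose by 1.5-fold or more, 6.79% fell, and 33.3% did not overlap. The median difference was 0.64, and in each of the 3 libraries with both compounds the median of the list stood 0.607 to 0.642 above the mean of the EpA group.

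*Cdkn1a*, which encodes the cell cycle inhibitor p21, measured 52.3, 52.4, and 52 FPKM with EpA and 85, 87.3, and 89.5 FPKM with both compounds (log2 difference 0.74, adjusted p = 6.11e-09). *Mdm2*, the ubiquitin ligase that degrades p53, measured 14.7, 15.6, and 15.5 FPKM and 24.5, 24.3, and 24.7 FPKM (0.68, adjusted p = 2.82e-08). *Trp53inp1*, a stress protein that acts in autophagy and cell death, measured 14.3, 13.8, and 13.8 FPKM and 30.7, 29.7, and 29.7 FPKM (1.10, adjusted p = 7.25e-09). The libraries of a group lay within a few percent of each other for these genes, far closer than the groups lay to each other. Among genes of apoptosis, *Bbc3* (PUMA) rose 1.72-fold, *Pmaip1* (NOXA) 1.81-fold, the death receptors *Tnfrsf10b* 1.79-fold and *Fas* 1.59-fold, and the nuclease *Aen* 1.47-fold, whereas *Bax* rose 1.2-fold. The stress-induced kinase *Plk2* rose 1.89-fold, *Sesn2*, which restrains mTORC1, 1.76-fold, *Phlda3*, an inhibitor of AKT, 1.65-fold, the RNA-binding *Zmat3* 1.55-fold, and *Ccng1* (cyclin G1) from 143 to 203 FPKM. *Gadd45b* was the member that fell (-0.21, adjusted p = 0.00815), and *Gadd45a*, *Gadd45g*, *Rrm2b*, and *Ddb2* did not pass (adjusted p = 0.682 to 0.831).

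The largest rises outside that list were of mixed function. *Zfp385a*, a zinc finger protein that binds p53, measured 2.37, 2.01, and 1.96 FPKM with EpA and 6.97, 7.2, and 6.61 FPKM with both compounds (1.67, adjusted p = 1.51e-07). *Tnfsf4*, which encodes the costimulatory ligand OX40L, measured 6.09, 5.5, and 5.49 FPKM and 13.6, 13.4, and 13.7 FPKM (1.24, adjusted p = 9.07e-08). *Eng*, which encodes the TGF-β co-receptor endoglin, rose from 2.07 ± 0.182 to 4.53 ± 0.247 FPKM. *Slc4a11*, a membrane transporter of the bicarbonate transporter family, rose 2.12-fold, *Crip2*, a LIM domain protein, 2.39-fold, *Ak1* (adenylate kinase) 2.76-fold, and *Pierce1* 2.64-fold. *Art2b*, a cell-surface ADP-ribosyltransferase, rose from 0.351 to 0.989 FPKM, although it has a near-identical copy, *Art2a*, with which reads could be shared. The receptor segment *Trbv12-1* rose from 1.04 to 2.25 FPKM with values of 1.996, 1.79, and 2.95 FPKM in the 3 libraries with both compounds.

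The cytokine *Il9*, which defines these cells, was higher with both compounds. It measured 619.9, 652, and 648 FPKM with EpA and 805, 802, and 855 FPKM with both compounds. No library with both compounds was as low as any EpA library, and the log2 difference was 0.36 (SE 0.0566, 95% interval 0.23 to 0.48, adjusted p = 0.00132). Without EpA the level was 54.6 ± 3.38 FPKM with DMSO and 66.5 ± 5.22 FPKM with fatostatin, a difference of 0.28 (adjusted p = 0.00652) on a far lower level. Of the 12 cytokine genes tested, 7 rose and 2 fell (9.22% and 6.79% of all genes), and the median was 0.32. *Il5*, which acts on eosinophils, rose from 0.771 ± 0.135 to 1.58 ± 0.147 FPKM and *Il13*, which acts on epithelium, from 15.9 ± 1.87 to 20.8 ± 0.602 FPKM. The chemokines of type 2 inflammation *Ccl17* and *Ccl22* rose 1.86-fold and 1.53-fold, *Il1rn* (the IL-1 receptor antagonist) 1.38-fold, and *Il21* 1.23-fold, a call lost under 11 of 22 alternative settings. *Il4*, the polarizing cytokine, stood at 8.78 ± 0.233 and 9.1 ± 0.613 FPKM, and its values overlapped (adjusted p = 0.611).

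*Il10*, the anti-inflammatory cytokine, went the other way. It measured 138, 137, and 134 FPKM with EpA and 69.7, 71.3, and 72.6 FPKM with both compounds, with every value of one group near 0.522 of those of the other (-0.94, adjusted p = 1.33e-09). *Il24*, another member of the IL-10 family, fell by less, from 109 ± 2.3 to 98.3 ± 2.6 FPKM (adjusted p = 0.00116).

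Transcription factors linked to Th9 differentiation moved by modest amounts in both directions, with 14 of 30 higher and 5 lower, against 9.22% and 6.79% of all genes, and a median of 0.06. *Maf*, a factor known to drive *Il10* and *Il4*, fell from 15.4, 16.4, and 15.7 FPKM to 11.4, 11.8, and 11.6 FPKM (-0.45, adjusted p = 1.17e-06). *Id3*, an inhibitor of E proteins, fell (-0.42), as did *Batf*, an AP-1 factor, from 95.3 to 88.7 FPKM (adjusted p = 0.0244). *Irf4*, a factor that binds the *Il9* promoter, rose from 143 to 164 FPKM (0.19, adjusted p = 0.000138). *Smad3*, the mediator of TGF-β signals, rose 1.42-fold, *Relb* 1.43-fold, *Etv5*, with a mean below 1 FPKM, 1.78-fold, *Stat6*, the mediator of IL-4 signals, 1.1-fold, and *Gata3* 1.1-fold. Factors and cytokines of other helper lineages were scattered, with 6 of 21 higher and 2 lower, against 9.22% and 6.79% of all genes. *Tbx21* (T-bet, Th1) rose (0.32), whereas *Il17f* (Th17), with a mean below 1 FPKM, fell from 1.57 to 0.906 FPKM. *Ifng* (Th1) measured 2.14, 1.49, and 1.66 FPKM and 1.27, 1.28, and 1.36 FPKM (-0.39, adjusted p = 0.0499), a call that was lost under 17 of 22 alternative settings (adjusted p up to 0.155).

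Genes induced early after T cell receptor signaling were listed with the phosphatases and Sprouty proteins that restrain ERK. Of 30 tested, 11 rose, 0 fell (9.22% and 6.79% of all genes), and 19 did not pass, with a median of 0.22, and with median ratio scaling the counts were 10 and 1. *Nr4a3*, an orphan nuclear receptor induced by antigen signals, showed the largest rise, from 2.63, 2.76, and 2.56 FPKM with EpA to 7.61, 7.79, and 7.43 FPKM with both compounds (1.49, adjusted p = 7.25e-09). The libraries of each group were almost level, and the groups were far apart. *Egr1*, a low gene and a target of ERK, rose from 0.369 ± 0.0581 to 0.818 ± 0.0848 FPKM, *Dusp5* and *Dusp6*, ERK phosphatases, 1.34-fold and 1.47-fold, and *Phlda1* 1.63-fold. *Cd69*, an early activation marker and retention receptor, measured 1.18, 1.14, and 1.14 FPKM and 1.57, 1.58, and 1.62 FPKM (0.43, adjusted p = 0.013).

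Receptors and ligands at the cell surface moved in both directions. Of 26 checkpoint and costimulatory genes, 8 rose and 6 fell (9.22% and 6.79% of all genes). *Cd274* and *Pdcd1lg2*, the ligands of PD-1, rose 1.6-fold and 1.48-fold, *Btla* 1.57-fold, and *Ctla4*, which was already abundant, from 237 to 296 FPKM. *Pdcd1* (PD-1) itself measured 9.73, 8.69, and 8.75 FPKM with EpA and 10.1, 9.63, and 9.33 FPKM with both compounds, which overlapped (adjusted p = 0.196). *Cd28*, the receptor for costimulation, fell from 25.7 ± 0.621 to 20.01 ± 0.27 FPKM, and *Tox2* from 1.75 to 0.949 FPKM. *Lag3* did not pass (adjusted p = 0.255).

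Of 24 cytotoxic effectors and TNF family ligands tested, 7 rose and 4 fell (9.22% and 6.79% of all genes), the latter 3 granzymes and the ligand *Tnfsf13b* (BAFF, -0.22), and 13 did not pass. *Tnfsf8* (CD30L) measured 49.9, 50.2, and 49 FPKM and 89.4, 89.1, and 85.2 FPKM (0.82, adjusted p = 7.25e-09), and *Tnfsf11* (RANKL) and *Lta* rose 1.42-fold and 1.29-fold. *Gzmb*, the most abundant granzyme, fell from 118, 118, and 117 FPKM to 103, 105, and 106 FPKM (-0.17), *Gzma* from 23.5 to 16.2 FPKM, and *Gzmc* from 2.83 to 1.45 FPKM (adjusted p = 0.0267). *Serpinb6b*, a serpin protease inhibitor, rose 1.47-fold. *Tnf* stood at 5.8 ± 0.326 and 5.9 ± 0.263 FPKM, with overlapping values (adjusted p = 0.901, 95% interval of the log2 difference -0.19 to 0.24).

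Homing receptors also split. Of 27 tested, 11 rose and 4 fell (9.22% and 6.79% of all genes). Besides *Gpr15*, which fell, *Itga4* (the α4 integrin) rose 1.76-fold, *Ccr6* 1.44-fold, and *Ccr7*, which guides cells to lymph nodes, from 208 to 244 FPKM, whereas *Itgae* (CD103, the αE integrin of mucosal T cells) measured 8.48, 8.62, and 8.5 FPKM and 5.55, 5.73, and 5.53 FPKM (-0.60, adjusted p = 1.51e-07). Of 24 genes of quiescent and memory T cells, 12 rose, against 9.22% of all genes, and 1 fell, a share near the 6.79% of all genes, with a median of 0.10. *Foxo3*, a factor that restrains growth, rose 1.53-fold, *Btg1*, an antiproliferative gene, from 27.4 to 35.6 FPKM, and *Tcf7*, the factor TCF-1 of memory precursors, 1.1-fold, while *Foxo1* fell (-0.16). Among 31 cytokine receptors, 7 rose and 3 fell, the latter a share near the 6.79% of all genes. *Tgfbr2* rose 1.14-fold and *Il17rb* 1.25-fold, *Crlf2* fell (-0.19), and *Il2ra*, at 876 and 905 FPKM, did not pass (adjusted p = 0.175).

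The SREBP pathway was read through its machinery, its cholesterol genes, and its fatty acid genes. Of 62 genes listed, 57 were tested. Of these, 15 (26.3%) fell and 5 (8.77%) rose at an adjusted p below 0.05, 37 did not pass, and the median difference was -0.06, against 6.79%, 9.22%, and 0.01 for all genes. The 95% intervals of the 51 members with a mean of at least 1 FPKM ran from -0.53 (*Slc25a1*) to 0.58 (*Lpin1*), so larger changes than these lay outside the interval of every such member.

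Among the machinery, *Srebf1* measured 31.4, 30.9, and 30.4 FPKM with EpA and 29.1, 28.7, and 29.4 FPKM with both compounds (-0.09, adjusted p = 0.0228). The fall was small and the values did not overlap, and the call was lost under 5 of 22 alternative settings (adjusted p up to 0.0869). *Srebf2* stood at 39.3 ± 0.587 and 39.5 ± 0.292 FPKM (adjusted p = 0.863). *Scap*, the sensor to which fatostatin binds, rose from 11.1 ± 0.216 to 13 ± 0.643 FPKM (0.22, adjusted p = 0.00603). *Insig1*, which retains SCAP in the endoplasmic reticulum and is itself an SREBP target, fell (-0.18), and its paralog *Insig2* rose (0.17). *Rnf139*, a ubiquitin ligase of this complex, fell (-0.18), as did *Tmem97*, a sterol-responsive membrane protein (-0.09), and the proteases *Mbtps1* and *Mbtps2* that release SREBPs, along with *Erlin1* and *Erlin2*, did not pass.

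In the cholesterol branch, 6 of 24 genes fell, against 6.79% of all genes, and 2 rose, a share close to the 9.22% of all genes, with a median of -0.07. *Hmgcs1*, which makes the precursor of mevalonate, measured 35, 33.8, and 34.8 FPKM with EpA and 28.6, 29.8, and 29.1 FPKM with both compounds (-0.24, adjusted p = 0.000713). Its promoter is shown because it held the single match among the windows of the list to the sterol regulatory element TCACNCCAC, in capitals. This is the motif SREBPs are known for, and windows were at hand for 18 of the 26 listed genes.
Hmgcs1: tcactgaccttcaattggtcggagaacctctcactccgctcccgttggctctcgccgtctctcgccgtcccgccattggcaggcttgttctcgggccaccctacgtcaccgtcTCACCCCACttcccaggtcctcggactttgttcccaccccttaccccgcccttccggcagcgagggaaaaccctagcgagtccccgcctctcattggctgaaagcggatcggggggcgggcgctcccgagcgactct
The window lies at chr13:119690101-119690350 (plus strand, GRCm38.p6, RefSeq), and the match began 137 bases before the start. This motif, read on both strands, was present in 4.76% of the 21 windows of the branch and 1.24% of all windows, and where its N is G it contains CACGC, the complement of the AhR core. The epoxidase *Sqle* fell (-0.21, adjusted p = 0.00014), as did *Msmo1* (-0.18), *Sc5d* (-0.13), and *Cyp51* (-0.11), all enzymes of the later steps. *Hsd17b7*, another late enzyme, rose (0.26), as did *Idi1*, the isopentenyl diphosphate isomerase (0.17).

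In the fatty acid branch, 5 of 21 genes fell and 1 rose (6.79% and 9.22% of all genes), with a median of -0.06. *Scd1*, the desaturase that makes oleate from stearate, measured 229, 224, and 224 FPKM with EpA and 169.6, 172, and 171 FPKM with both compounds (-0.40, adjusted p = 1.07e-07). All 3 libraries with both compounds were lower than the EpA libraries by more than the whole spread within either group. *Slc25a1*, which exports mitochondrial citrate for lipid synthesis, fell from 32.4 ± 0.794 to 24.4 ± 1.3 FPKM, and the elongases *Elovl1* and *Elovl5* by 0.14 and 0.06 on the log2 scale, the latter a call lost under 12 of 22 alternative settings. *Fads1*, a desaturase of polyunsaturated fatty acids, measured 14.2, 14.2, and 14 FPKM and 13, 12.9, and 12.9 FPKM (-0.13, adjusted p = 0.00809). *Lpin1*, a phosphatidate phosphatase, rose (0.42). The central enzymes did not pass, with *Fasn* at 38.7 ± 0.0483 and 39.7 ± 0.144 FPKM (interval -0.00309 to 0.0738), *Acaca* at 8.09 ± 0.275 and 8.4 ± 0.299 FPKM, and *Acly* at 78 ± 1.09 and 74.6 ± 2.14 FPKM. The most abundant desaturase, *Scd2*, stood at 536 ± 3.87 and 517 ± 14.9 FPKM (adjusted p = 0.164).

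Genes of sterol efflux, which the liver X receptors control in the opposite sense, had a median of 0.13. Of the 14 tested, 3 rose (2 with median ratio scaling) and 2 fell, against 9.22% and 6.79% of all genes, and 9 did not pass. *Abca1*, the cholesterol exporter, measured 2.68, 2.55, and 2.55 FPKM and 3.58, 3.42, and 3.39 FPKM (0.40, adjusted p = 0.000605), *Npc2*, a lysosomal cholesterol carrier, rose (0.31), and *Apoe* rose from 1.57 to 2.07 FPKM (adjusted p = 0.0433, a call lost under 15 of 22 alternative settings). *Arl4c*, a small GTPase that is also an LXR target, fell from 38.2 ± 0.909 to 25.8 ± 0.577 FPKM (-0.56, adjusted p = 3.98e-08). Of 20 fatty acid oxidation genes 1 rose and 1 fell, no larger shares than those of all genes (9.22% and 6.79%), where *Plin2*, a lipid droplet coat protein, rose (0.18) and the dehydrogenase *Hadh* fell (-0.11). Of 28 sphingolipid and phospholipid genes, 3 rose and 3 fell (1 and 4 with median ratio scaling), shares close to those of all genes, among them the ceramide synthase *Cers4* (0.27) and the glucosylceramide synthase *Ugcg* (0.11, a call lost under 12 of 22 alternative settings), which rose, and the serine palmitoyltransferase subunit *Sptlc2* (-0.12) and the phosphatidylserine synthase *Ptdss1* (-0.13), which fell.

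**Figure D3:**
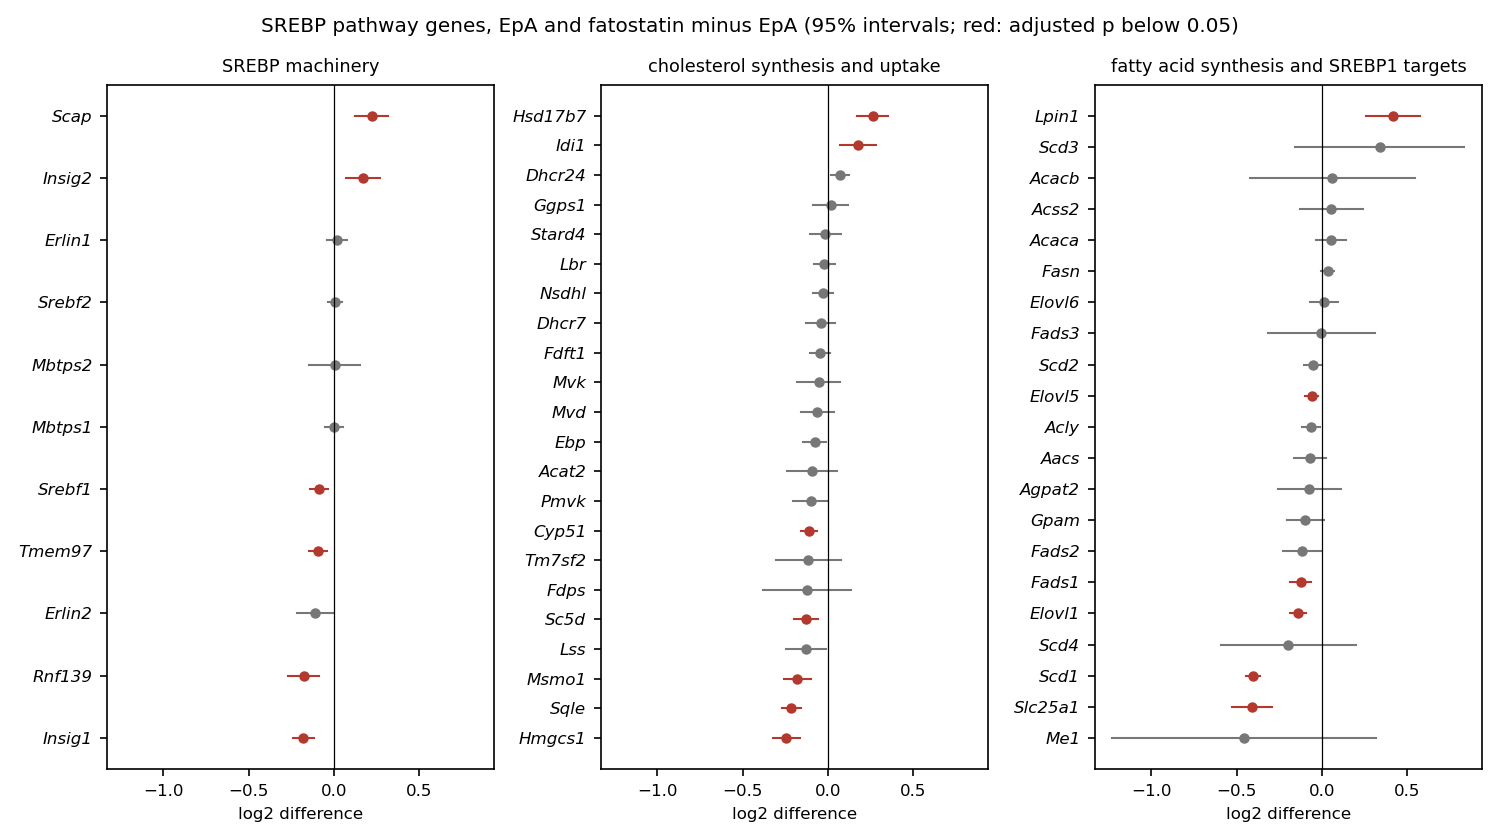
log2 difference between EpA and fatostatin and EpA alone for 54 of the 57 tested SREBP pathway genes in 3 panels (machinery, cholesterol, fatty acid), with 95% intervals and genes past the adjusted p in red. *Slc25a1* at -0.41 and *Scd1* at -0.40 mark the lower end of the plotted genes that passed, and *Lpin1* at 0.42 the upper end.

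Genes of the cell cycle fell slightly and in large number. Of 37 genes of mitosis, 25 fell and 0 rose (29 did not overlap), with a median of -0.16, and of 34 genes of S phase, 20 fell and 0 rose, with a median of -0.10, where 6.79% of all genes fell and 33.3% did not overlap. *Prc1* and *Kif23*, which build the spindle midzone for cell division, fell from 19, 19.4, and 18.4 FPKM to 15.4, 14.7, and 14.2 FPKM and from 18.5 to 14.6 FPKM. *Ube2c*, which tags mitotic proteins for destruction, fell from 82 to 65.9 FPKM, *Ccnb1* (cyclin B1) from 79.5 ± 1.35 to 66.3 ± 1.31 FPKM, and *Plk1*, the mitotic kinase, from 68.2 to 58.5 FPKM. Differences of this size were larger than the spread between libraries. At 1.5-fold 0 genes of either list were called, near the 0.481% of all genes called lower. *Mki67*, the proliferation marker, measured 139, 139, and 135 FPKM and 138, 122, and 119.5 FPKM and did not pass (adjusted p = 0.156). In S phase, *E2f8* fell by 0.32 on the log2 scale, *Rfc4*, a clamp loader subunit, by 0.21, the helicase subunit *Mcm5* by 0.13, and *Pcna*, the sliding clamp, by 0.12.

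Tubulins and related genes were lower in 10 of 19 cases and higher in 1 (6.79% and 9.22% of all genes), with a median of -0.14. *Tubb5*, the most abundant β-tubulin, measured 599, 600.0, and 616 FPKM with EpA and 473, 492, and 491 FPKM with both compounds (-0.32, adjusted p = 2.37e-06). *Tuba1b* measured 474, 475, and 501 FPKM and 364, 394, and 388 FPKM (-0.34), and *Tuba1c*, *Tubb2a*, and *Tubb4b* fell by 0.35, 0.32, and 0.22 on the log2 scale. The values did not overlap for any of the 5. The member that rose was *Tubb6* (0.16, adjusted p = 0.0255). Tubulin genes are close in sequence, so reads may be shared between them.

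Genes controlled by ATF4, the factor of the amino acid and integrated stress response, fell more often than they rose. Of 32 tested, 13 fell and 2 rose (6.79% and 9.22% of all genes), with a median of -0.07, and *Atf4* itself fell (-0.31, adjusted p = 2.98e-06). *Chac1*, which degrades glutathione and is a sensitive ATF4 target, measured 2.93, 2.74, and 2.76 FPKM with EpA and 1.58, 1.54, and 1.18 FPKM with both compounds (-0.93, adjusted p = 0.000229). *Asns*, the asparagine synthetase, measured 33.1, 33.6, and 33.5 FPKM and 29.3, 31, and 30.2 FPKM (-0.15, adjusted p = 0.00119). Their promoters are shown because both hold the composite element TGATGNAA of C/EBP and ATF factors, in capitals, on either strand.
Asns: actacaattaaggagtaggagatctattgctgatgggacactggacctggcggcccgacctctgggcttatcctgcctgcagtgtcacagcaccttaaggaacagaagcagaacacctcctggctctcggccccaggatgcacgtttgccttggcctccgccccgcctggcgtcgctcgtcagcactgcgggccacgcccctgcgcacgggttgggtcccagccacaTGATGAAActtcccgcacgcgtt
Chac1: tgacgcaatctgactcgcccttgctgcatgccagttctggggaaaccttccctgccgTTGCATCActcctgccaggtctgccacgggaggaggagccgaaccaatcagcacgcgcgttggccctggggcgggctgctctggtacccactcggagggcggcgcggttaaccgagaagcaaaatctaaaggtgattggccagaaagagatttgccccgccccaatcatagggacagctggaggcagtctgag
The windows lie at chr6:7693210-7693459 (minus strand) and chr2:119350992-119351241 (plus strand) in GRCm38.p6 (RefSeq), with the match beginning 23 and 193 bases before the start. The element was found in 28.1% of 32 windows of the list and 3.97% of all windows. It cannot contain GCGTG, and the shares are a description. *Slc1a4*, an amino acid transporter, fell (-0.50), as did the pseudokinase *Trib3* (-0.39), whereas *Sesn2*, also a p53 target, rose (0.81).

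The aminoacyl-tRNA synthetases, which charge tRNAs for translation and many of which ATF4 also induces, fell in 11 of 18 cases with 0 that rose (median -0.09), where 6.79% of all genes fell. *Aars1* measured 28.5, 28.7, and 28 FPKM and 24.2, 23.3, and 24.1 FPKM (-0.25, adjusted p = 4.66e-05), and *Cars1*, *Yars1*, and *Iars1* fell by 0.25, 0.25, and 0.19 on the log2 scale. Proteasome genes fell in 15 of 51 cases with 0 that rose (median -0.06), and in 22 with median ratio scaling, which raised the number of all genes that fell from 933 to 1252 of 13733, with *Psmc5* at -0.13 and *Psmd1* at -0.11. Of 27 genes of the unfolded protein response, 6 fell and 2 rose, the latter a share below the 9.22% of all genes. The chaperones *Calr* and *Canx* moved apart, *Calr* from 479 to 432 FPKM and *Canx* from 237 to 263 FPKM.

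Differences in mitochondrial and ribosomal genes were small. Of 95 nuclear-encoded respiratory chain genes, 3 rose and 6 fell (1 and 9 with median ratio scaling), against 9.22% and 6.79% of all genes, and the median was -0.01. *Cox6b2*, an isoform of a cytochrome oxidase subunit, rose from 3.46 ± 0.529 to 6.51 ± 0.914 FPKM (0.90), whereas *Atp5mc2* and *Sdhb* fell (-0.18 and -0.15). Mitochondrial ribosomal proteins fell in 10 of 78 cases with 0 higher (median -0.07), *Mrpl58* by 0.33, and cytosolic ribosomal proteins in 1 of 85 (*Rps7*, -0.09), and with median ratio scaling these falls numbered 18 and 5. Of 40 ribosome biogenesis genes, 2 rose, among them *Utp20* (0.25), and 5 fell, among them *Npm1*, which encodes nucleophosmin, from 969 to 888 FPKM, and with median ratio scaling 11 fell. Glycolysis genes rose in 6 of 25 cases with 0 lower. The glucose transporter *Slc2a3* measured 21.7, 22.2, and 21.9 FPKM and 28.5, 28.4, and 28.4 FPKM (0.37, adjusted p = 1.76e-06), hexokinase *Hk2* and the lactate dehydrogenase subunit *Ldhb* rose 1.17-fold and 1.32-fold, and *Slc2a1* stood at 49 ± 0.805 and 50.4 ± 1.36 FPKM (adjusted p = 0.367).

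Of all genes, 9.22% were higher and 6.79% lower, and several of the remaining lists were near these shares. Of 22 hypoxia response genes, 3 rose and 1 fell, with the mitophagy receptor *Bnip3* lower (-0.17) and its relative *Bnip3l* higher (0.10). Of 27 NRF2 antioxidant genes, 2 rose and 2 fell (4 with median ratio scaling), where *Abcc1*, a glutathione conjugate exporter, rose (0.30) and *Nfe2l2*, which encodes NRF2, fell (-0.20) along with *Nqo1*. The 30 interferon-stimulated genes were above these shares both ways, with 8 (26.7%) higher and 5 (16.7%) lower. Among them the guanylate-binding protein *Gbp3* was higher (0.52), and *Ly6a* (Sca-1) and *Rigi*, an RNA sensor, were lower (-0.49 and -0.60). Of 38 lysosome and autophagy genes, 2 rose and 3 fell (5 with median ratio scaling), where the protease *Ctsd* rose from 21.9 to 29.3 FPKM and *Ctss* fell (-0.19).

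**Figure D4:**
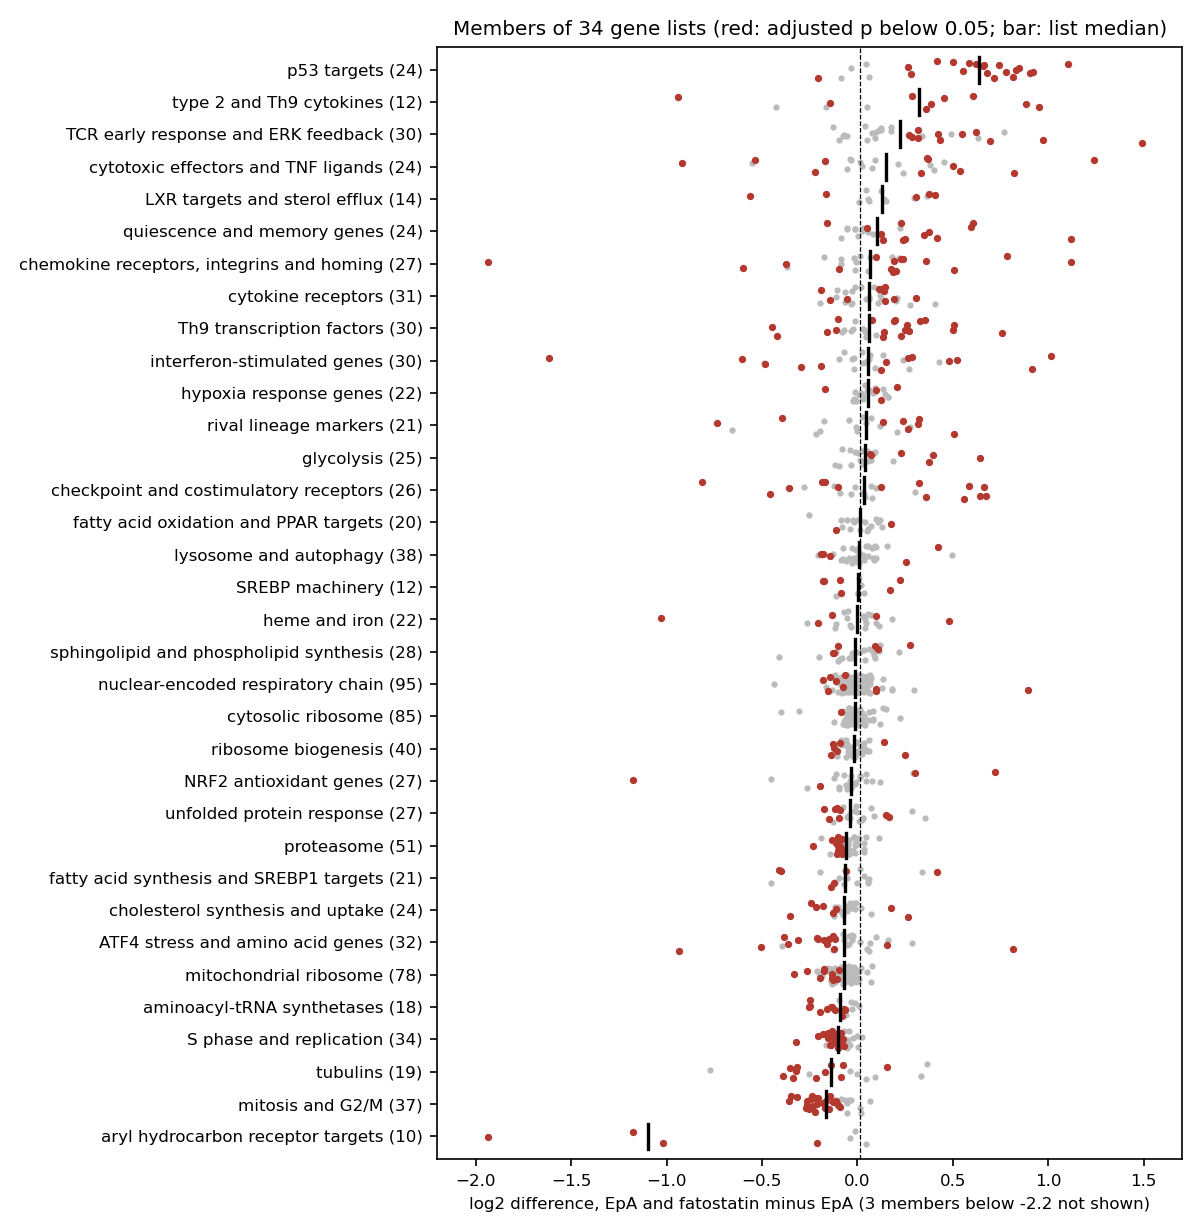
log2 difference between EpA and fatostatin and EpA alone for every tested member of the 34 gene lists (number tested in parentheses), with members past the adjusted p in red, a bar at each list median, and a dashed line at the median of all genes. The AhR list (median -1.10) and the p53 list (median 0.64) stand farthest from the line, and 3 AhR members below -2.2 (*Cyp1a1*, *Cyp1b1*, and *Ahrr*) are off the axis.

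To show what fatostatin did with and without EpA, the difference was set beside that between fatostatin and DMSO, which shares no library with it. Fatostatin without EpA gave 255 called genes, and 151 genes were called in both comparisons, which is 55.3% of the calls with EpA and 59.2% of those without. Of the 273 genes called with EpA, 258 (94.5%) had the same sign without it, against 71.0% of all tested genes. Pearson's r of the differences was 0.35 across all tested genes, 0.83 across the called genes, and 0.61 across genes that averaged 1 FPKM or more. Genes are not independent, so no p is given. The called genes were chosen for a large difference with EpA, and that choice alone can raise their r and their share of equal sign. The AhR list had a median of -1.07 without EpA and -1.10 with it, the p53 list 0.63 and 0.64, and mitosis -0.10 and -0.16.

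The test of the difference between the effects of fatostatin passed for 6 genes (0.0437% of those tested), and the unadjusted p was below 0.05 for 1083. The count was 0 with median ratio scaling, 0 with the replicate block, and 0 to 2 without any 1 of the libraries, so the differences below are given with that limit. For most other genes the difference was not detectable, with a 95% interval that reached a median of 0.152 to either side for genes that averaged 1 FPKM or more. *Nr4a3* rose more with EpA than without it. It measured 2.61, 2.62, and 2.6 FPKM with DMSO and 5.36, 5.58, and 5.01 FPKM with fatostatin, a log2 difference of 1.00, against 1.49 with EpA (difference 0.49, interval 0.34 to 0.64, adjusted p = 0.0372). *Cdkn1a* rose less with EpA, by 0.74 against 0.99 from 26.2 to 52.2 FPKM, and the level with fatostatin alone was close to that with EpA alone (difference -0.25, interval -0.32 to -0.19). *Cpox* fell less with EpA, at -1.03 against -1.31 (difference 0.29, interval 0.20 to 0.37), and so did its neighbor *Cldnd1*, at -0.94 against -1.17 (difference 0.23, interval 0.16 to 0.30). *Rara*, which encodes retinoic acid receptor α, fell from 8.63 ± 0.231 to 6.57 ± 0.0879 FPKM without EpA and stood at 8.77 ± 0.0941 and 8.41 ± 0.147 FPKM with it (difference 0.33). *Neat1*, a long noncoding RNA of nuclear paraspeckles, fell without EpA (-0.19) and rose with it (0.15, difference 0.33). The adjusted p was 0.0372 for each of the 6.

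For *Il9* the difference between the effects was 0.08 (interval -0.10 to 0.25, adjusted p = 0.892), for *Il10* 0.10 (interval 0.03 to 0.17, adjusted p = 0.474), and for *Cyp1a1* -1.17 (interval -1.68 to -0.65, adjusted p = 0.234), none of which passed. *Ifng* stood at 0.16 without EpA and -0.39 with it, and *Il4* at -0.28 and 0.05, and these differences did not pass either (adjusted p = 0.426 and 0.305).

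**Figure D5:**
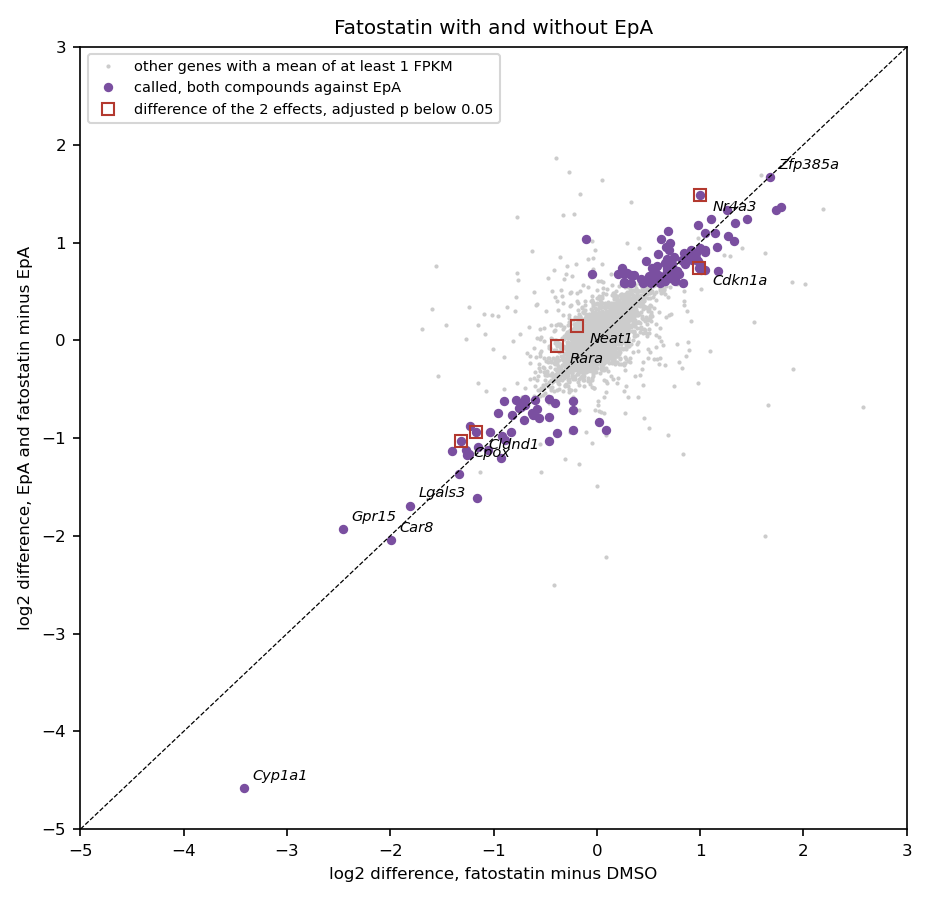
log2 difference with fatostatin in the absence of EpA (fatostatin minus DMSO, x axis) and in its presence (EpA and fatostatin minus EpA, y axis) for genes averaging 1 FPKM or more, with the genes called in the presence of EpA in purple, the 6 genes past the test of the difference as red squares, and equality as a dashed line. Most called genes lie in the quadrants of equal sign, with *Cyp1a1* at -3.42 and -4.58.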

How the data were processed

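RNA-seq was measured in 12 libraries, 3 in each of 4 groups (DMSO; EpA; fatostatin; both compounds). Per the methods of the study, the authors used Trim Galore for trimming, HISAT2 for alignment (GRCm38), and featureCounts for gene counts, and deposited FPKM values. Strand and annotation release are not given in the sources used here, so overlapping genes of opposite strand are uncertain. The sources differ on plate-bound anti-CD3 (5 or 2 μg/mL). All 12 columns were assigned to samples by name, and 1 line per Ensembl gene was kept. No pair of libraries held identical values.

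Dividing by the value of 1 read (from exon lengths of GRCm38) gave whole numbers, within 0.02, for 98.22% to 98.36% of values, and depth is the sum of these reads. Intervals on reads cover counting error only. Genes averaging 0.1 FPKM or more were tested as log2(FPKM + 0.1) with limma 3.58.1 in R 4.3.3 (trended empirical Bayes), in 1 fit of all 12 libraries with a mean per group. Differences are therefore on the log2(value + 0.1) scale, which understates changes of low genes, and folds are ratios of mean FPKM. p-values are two-sided and Benjamini-Hochberg adjusted over 13733 genes. The fit was tested on simulated data. The authors' thresholds (adjusted p below 0.05, fold of 1.5) were kept, with limma in place of a count model because the deposited values are FPKM. Named genes were the 12 largest rises and falls among called genes averaging 1 FPKM or more without overlap, genes the study measured, up to 4 members past the test from each of 34 lists, SREBP pathway members, and the smallest p of the difference between effects, and others were named after their values were seen. A few genes that fall under these rules are counted in their lists but not reported here singly. The comparison, members, and lists were chosen with earlier results of these data known. Promoters are RefSeq (GRCm38.p6). Alternatives changed the pseudocount, minimum FPKM, scaling, thresholds, model, and libraries, and limma-voom was run on the recovered reads.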

Additional observations from a re-analysis of the deposited data

Results flagged for a closer look

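The effect of fatostatin differed between cells with and without EpA for 6 genes in the limma test of the difference itself, each with an adjusted p of 0.0372. The log2 effect with EpA minus that without it was 0.49 for *Nr4a3*, 0.335 for *Neat1*, 0.328 for *Rara*, 0.286 for *Cpox*, 0.228 for *Cldnd1*, and -0.254 for *Cdkn1a*. For *Nr4a3*, *Cpox*, *Cldnd1*, and *Cdkn1a* the effect had the same sign in both settings and differed in size. For *Neat1* it was -0.19 without EpA (adjusted p = 0.00194) and 0.15 with it (adjusted p = 0.00844), and for *Rara* -0.39 without EpA (adjusted p = 6.75e-06) and -0.06 with it (adjusted p = 0.214). With median ratio scaling, and with the replicate block, 0 genes passed this test.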

How the results depend on the processing

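The numbers of genes called higher (207) and lower (66) with both compounds than with EpA moved most with the thresholds. They were 51 and 33 with a pseudocount of 1, 633 and 215 at a fold of 1.2, and 1266 and 933 with no fold threshold, and a minimum mean of 1 FPKM left 98 higher. Leaving out each library in turn gave 171 to 207 higher and 62 to 78 lower. Replicate numbers did not pair the samples (correlation of same-numbered deviations -0.046 to 0.016 for the groups compared), and the fit with the replicate block gave 196 higher and 70 lower. The count for the difference between the effects of fatostatin (6) was 10 with a pseudocount of 0.01, 9 with a pseudocount of 1, 1 with TPM, 0 with median ratio scaling, 0 with the replicate block, 20 with limma-voom on recovered reads, and 0 to 2 without 1 library.

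The settings were followed gene by gene for 242 genes, which left out some named in the text, among them *Lpxn*, *Atf4*, and *Gadd45b*. Of the 242, 195 passed the adjusted p. Among these, 157 passed with the same direction under all of the 22 settings that could be run for them (21 for genes averaging under 1 FPKM), while 38 lost it under at least 1. Those named in the text were *Ifng*, *Apoe*, *Elovl5*, *Ugcg*, *Il21*, *Cd4*, *Crlf2*, *Ctss*, *Rps7*, *Gata3*, *Idi1*, *Srebf1*, *Tbx21*, *Tmem97*, *Gzmc*, *Insig2*, *Sptlc2*, *Sc5d*, *Batf*, *Ptdss1*, *Hadh*, *Trib3*, *Ccr6*, *Cers4*, and *Psmd1*. No gene of the 195 that passed changed direction. The genes whose direction changed had differences near 0. With median ratio scaling *Elovl6* was at -0.00314, *Ggps1* at -0.0016, *Mbtps1* at -0.0177, *Mbtps2* at -0.0144, and *Srebf2* at -0.012, and with TPM *Fads3* was at 0.00345. Without 1 library the range was -0.0659 to 0.19 for *Acacb*, -0.0331 to 0.0101 for *Arnt*, -0.00675 to 0.0436 for *Elovl6*, -0.00765 to 0.036 for *Erlin1*, -0.0282 to 0.0295 for *Fads3*, -0.00268 to 0.0439 for *Ggps1*, -0.0127 to 0.0122 for *Mbtps1*, -0.0565 to 0.0392 for *Mbtps2*, -0.00156 to 0.0186 for *Srebf2*, -0.0505 to 0.00658 for *Stard4*, and -0.0176 to 0.0621 for *Tnf*. The median of the AhR list ran from -1.12 to -0.214, the latter with no minimum FPKM, where other members enter. The causes of these changes were not tested. Depth limits low genes most, and *Cyp1a1* with both compounds rests on 10 reads.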
